A study of Mus musculus with 12 samples.

Results

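RNA from uninjured satellite cells (SCs), the stem cells of skeletal muscle, was compared between FoxM1-cKO mice and FoxM1fl/fl controls. The comparison takes 6 of the 12 libraries of the series, 3 of each genotype, chosen by their labels alone, and 4956 of the 13775 genes in the table. Control mice carried a pair of FoxM1 alleles with several exons flanked by loxP sites and no Cre. FoxM1-cKO mice carried the same alleles and Pax7-Cre, which is active in the Pax7 lineage from embryonic life, so the loss preceded the adult cells that were sorted. All mice were 2 months old, on a C57BL/6J background, with muscle that had not been injured with BaCl2. About 800 SCs per library were sorted as CD45-, Sca1-, CD11b-, CD31-, CD34+ and α7-integrin+ cells and amplified as cDNA with a kit made for single cells. The labels tie no library to a mouse, and p-values measure the spread between libraries, which may be partly technical.

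Adult SCs rest outside the cell cycle beneath the basal lamina of the myofibre until injury activates them, and then divide, differentiate and fuse. FoxM1 is a forkhead transcription factor that is made mainly in dividing cells, where it drives genes of the G2 phase and of mitosis such as Ccnb1, encoding cyclin B1. Resting cells make little of it, and the question of the comparison is what its absence changes in them.

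Foxm1 (ENSMUSG00000001517, chromosome 6 of mm10, 128362967 to 128376146) was at 5.48, 8.95 and 7.38 FPKM in controls and at 0 in all 3 libraries of the knockout. FPKM are fragments per kilobase of transcript, scaled to the depth of the library, as the authors deposited them. The groups did not overlap, and the difference did not pass the test over all genes (log2 difference -3.03 with SE 0.86, adjusted p = 0.128 from limma on log2(FPKM + 1)). Ccnb1, on chromosome 13 from 100778650 to 100786570, was at 6.02, 6.88 and 5.67 FPKM in controls and at 0 in all 3 libraries of the knockout (adjusted p = 0.172 from limma). In 6212 of 6219 genes where it could be tested, the values were whole multiples of what 1 read is worth, with a tolerance of 0.03 read and 0.1%. Foxm1 and Ccnb1 were among the 7 genes where they were not, so these values could not be turned into reads. In the deposited table the Foxm1 row is also spelled FoxM1 and carries none of the functional terms given for Ccnb1 and most other genes. How the values of these rows were obtained is not given in the sources used here, and the check of the labels by the targeted gene is limited to that extent.

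The uninjured libraries were shallow. The size of the steps between values gave depths of 600585, 642010 and 174827 reads in FoxM1fl/fl SCs and of 170701, 172898 and 238173 reads in FoxM1-cKO SCs, and 1464 to 3423 and 1178 to 1718 genes were above 0. Only 169 of the 4956 tested genes were above 0 in all 6 libraries, and 1925 were at 0 in all 6. In each genotype 1 library could be written as a weighted sum of its partners. Library FoxM1fl/fl uninjured 1 was within 1.5-fold of 0.883 times uninjured 2 plus 0.105 times uninjured 3 for 81.2% of the 1321 genes with at least 20 FPKM in either. FoxM1-cKO uninjured 2 was within 1.5-fold of 0.439 times uninjured 1 plus 0.526 times uninjured 3 for 73.8% of 882 such genes. The weights are medians over genes present in only 1 of the other 2 libraries. All tests treat the libraries as independent.

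Of the 4956 genes, 76 were called at an adjusted p under 0.05, which is 1.53% of those tested. In FoxM1-cKO SCs 43 were higher (0.868%) and 33 lower (0.666%). The fit shared its estimate of the spread over all 12 libraries, the injured ones included. Fitted to the 6 uninjured libraries alone it called 0 genes, with 266 at an unadjusted p under 0.05, 5.37% of those tested. Without the 3 libraries of the series that follow a weighted sum (1 of them injured) it called 0 genes, with 158 at an unadjusted p under 0.05. Without FoxM1fl/fl uninjured 1 it called 18 genes and without FoxM1-cKO uninjured 2 it called 23. After median-ratio scaling 37 genes were higher and 73 lower, so the balance of directions rests on the scaling. Every call below stands under these limits.

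**Figure D1:**
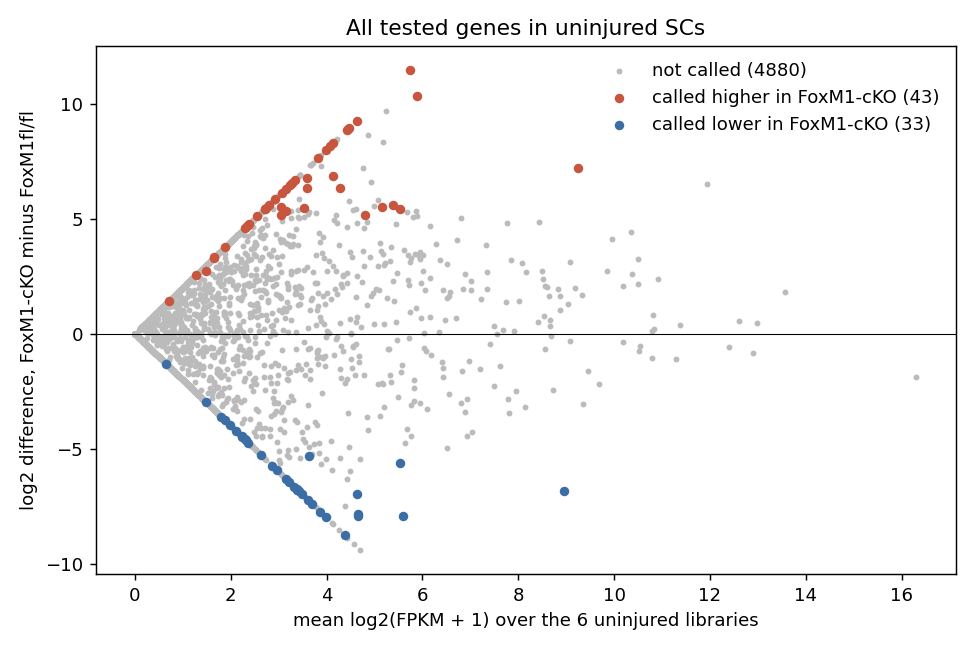
Log2 difference (FoxM1-cKO minus FoxM1fl/fl, vertical axis) against mean log2(FPKM + 1) over the 6 uninjured libraries (horizontal axis) for the 4956 tested genes, 1 point per gene. The 43 genes called higher and 33 called lower lie mostly on the diagonal edges, where a gene was at 0 in every library of 1 genotype.

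All 76 called genes separated the genotypes without overlap, as did 352 tested genes in all (7.1%). In FoxM1fl/fl SCs 28 of the 43 higher genes were at 0 in all 3 libraries, and in FoxM1-cKO SCs 26 of the 33 lower genes were. Reads could be recovered for 72 called genes. In the library of the higher group with the fewest reads, the median was 13 reads, 31 genes had under 10 and 10 genes had 1. Where 1 group was at 0, a fold is given below as a lower bound, the mean of the other group over the mean worth of 3 reads per library. Where reads could not be recovered no fold is given, and the bounds in the medians of lists take the worth of a read from the annotated exon length. Floors and bounds cover counting error only.

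**Figure D2:**
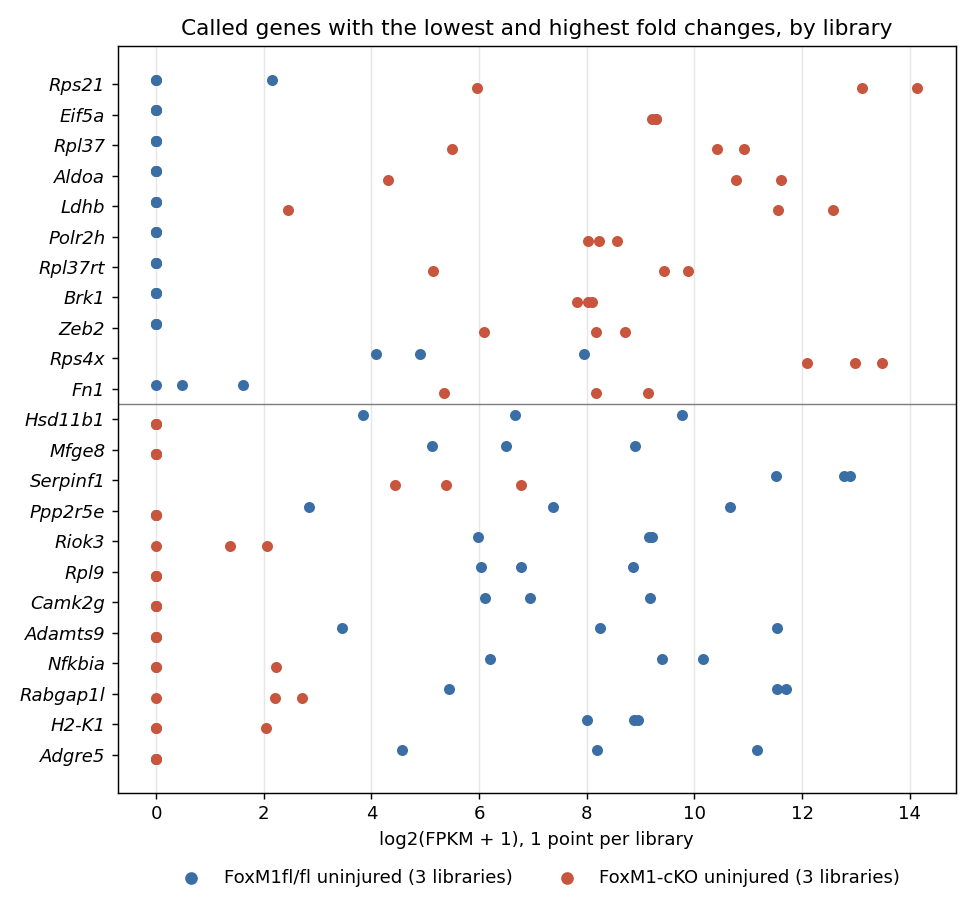
Log2(FPKM + 1) of called genes with the 12 lowest and, 1 gene left out, the 12 highest fold changes among those that reach a mean of 5 FPKM in the higher group, 1 point per library. Points at 0 overlie each other, and no gene has overlapping genotypes.

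Several genes of protein synthesis were called higher and Rpl9 was called lower. Eif5a (chromosome 11, 69916714 to 69921958), a translation factor that helps ribosomes past stalling sequences, was at 0 in all 3 libraries of controls and at 619.7, 619.8 and 590.2 FPKM in the knockout (adjusted p = 0.00201 from limma). The 3 knockout values lay close together, which few other called genes showed. Reads could not be recovered for Eif5a, nor for Rpl9, Zeb2 and Brk1 below. Rps4x, a protein of the small ribosomal subunit, rose from 29, 16 and 246 to 4386, 8127 and 11502 FPKM (log2 difference 7.21 with SE 0.97, adjusted p = 0.00396).

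Rps21, also of the small subunit, was at 3.46, 0 and 0 FPKM in controls and 18074, 8826 and 61.1 FPKM in the knockout, the latter from 1484, 734 and 7 reads (adjusted p = 0.0166). Rpl37, of the large subunit, was at 0 in all 3 libraries of controls and at 44.3, 1363 and 1929 FPKM (adjusted p = 0.00653). Its retrocopy Rpl37rt, at 34.4, 687 and 942 FPKM, rose in the same libraries, and reads from near-identical copies cannot be told apart with certainty. Rps21 was lowest in FoxM1-cKO uninjured 3, and Rpl37 and Rpl37rt in uninjured 1, so members of 1 complex did not vary together between the knockout libraries.

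Eef1g, a subunit of the elongation factor complex, rose from 1.79, 0.836 and 0 to 40.9, 83.8 and 126 FPKM (adjusted p = 0.0231). Eprs, which charges tRNAs with glutamate and proline, rose from 7.09, 4.42 and 4.06 to 288, 268 and 321 FPKM (log2 difference 5.59 with SE 1.04, adjusted p = 0.0193). It was above 0 in all 6 libraries, with at least 8 reads in each. Bzw2, a regulator of start codon choice, was at 0 in all 3 libraries of controls and at 74, 43.4 and 58 FPKM (adjusted p = 0.00754). Polr2h, a subunit shared by the RNA polymerases, was at 0 in all 3 libraries of controls and at 376, 298 and 261 FPKM (adjusted p = 0.0343).

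Rpl9 moved the other way, from 109, 64.9 and 464 FPKM in controls to 0 in all 3 libraries of the knockout (log2 difference -7.23 with SE 1.07, adjusted p = 0.00538). Over the whole list of cytosolic ribosomal proteins, 4 of 88 tested genes were called higher and 1 lower. The median log2 difference was 1.58, or 0.74 with genes at 0 in a group set to their bound, beside 0 over all tested genes. Together the list held 6.28, 5.48 and 9.77% of the summed FPKM in FoxM1fl/fl libraries and 15.6, 15.4 and 14.7% in FoxM1-cKO libraries. A few members carried much of the knockout share. Without the 2 members of highest FPKM in any library, a check chosen after the shares had been seen and given below for other lists too, the list held 5.67, 5.22 and 6.46% and 7.52, 8.51 and 9.17%. The share of every list depends on the summed FPKM, of which Gm23935 alone held 22.9, 19.1 and 32.8% in controls. In FoxM1-cKO libraries the top gene held 13.8, 7.89 and 9.29%, and it was Gm23935 in uninjured 3 alone. Whether the ribosomal shares separate the genotypes with Gm23935 left out of the total was not tested. Of 45 translation factors 2 were called higher and 0 lower, with a median of 0. Of 49 mitochondrial ribosomal proteins 0 were called by limma (6 at an unadjusted p under 0.05), and their share of FPKM was 2.9, 3.1 and 0.279% against 0.0159, 0.0312 and 0.0545%. In controls this share was almost entirely Mrps11 (17101, 18626 and 0 FPKM) and Mrps14 (215, 3.12 and 1932 FPKM). Without these 2 it was 0.0271, 0.0313 and 0.0115% against 0.0159, 0.0312 and 0.0545%, and the genotypes overlapped.

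**Figure D3:**
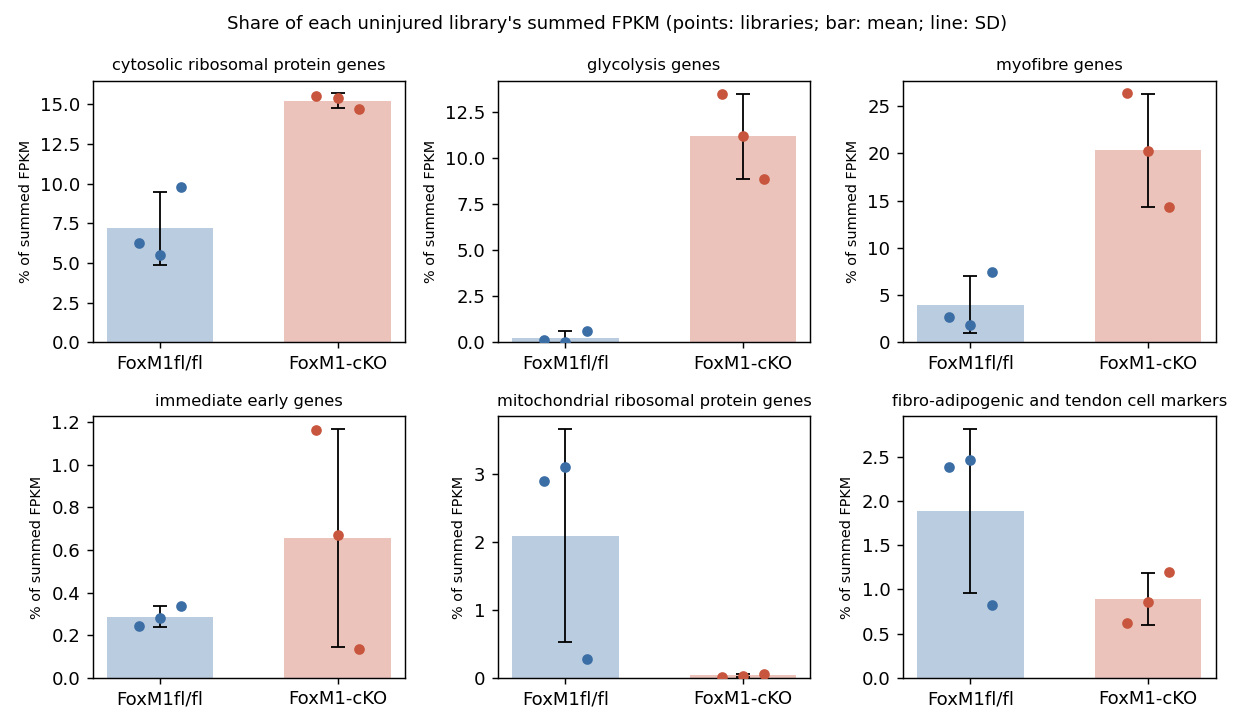
Share of each uninjured library's summed FPKM (vertical axis, percent) held by 6 gene lists; points are libraries, bars the mean and lines the SD of 3. With all members summed, ribosomal, glycolysis and myofibre genes hold more in every FoxM1-cKO library than in any FoxM1fl/fl library. Mitochondrial ribosomal genes hold less, and immediate early genes and the fibro-adipogenic and tendon markers overlap. Without the 2 members of highest FPKM of each list, not drawn, the myofibre and mitochondrial ribosomal shares overlap. Immediate early genes then hold less, and the fibro-adipogenic and tendon markers more, in every FoxM1-cKO library than in any FoxM1fl/fl library.

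Glycolysis was the list with the highest share of calls, 3 of 16 tested genes higher and 0 lower, beside 1.53% of all tested genes. The fibro-adipogenic and tendon markers lay close to it, with 2 of 17 higher and 1 lower. Aldoa, the aldolase of muscle, was at 0 in all 3 libraries of controls and at 18.9, 1740.0 and 3114 FPKM in the knockout (adjusted p = 0.0172 from limma). Ldhb, a lactate dehydrogenase subunit, was at 0 in all 3 libraries of controls and at 4.49, 3012 and 6111 FPKM, the first of these from 1 read (adjusted p = 0.0466). Pfkm, the phosphofructokinase of muscle, was at 0 in all 3 libraries of controls and at 10.2, 40.2 and 87.5 FPKM (adjusted p = 0.0305). All 3 were lowest in FoxM1-cKO uninjured 1 and highest in uninjured 3. Pgam2, the phosphoglycerate mutase of muscle, was at 319, 102 and 2111 FPKM in controls and at 95160.0, 49830.0 and 10740.0 FPKM in the knockout and was not called (adjusted p = 0.0863). It ran in the reverse order across the knockout libraries. The list's median was 2.11 with or without the bounds, and 12 members had a difference above 0 and 0 below. Its share of summed FPKM went from 0.104, 0.0333 and 0.638% to 13.5, 11.2 and 8.85%, of which Pgam2 made up the greater part in uninjured 1 and 2 and Eno3 in uninjured 3. Without these 2 it went from 0.0174, 0.00619 and 0.0992% to 0.122, 0.853 and 1.75%.

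Other energy genes gave single calls. Ak1, the adenylate kinase of muscle, was at 0 in all 3 libraries of controls and at 5.62, 280.2 and 364 FPKM (adjusted p = 0.0283). Ndufs3, a subunit of respiratory complex I, was at 19.1, 31.3 and 16.4 FPKM in controls and at 0 in all 3 libraries of the knockout (adjusted p = 0.029), and was the only call among 71 nuclear genes of oxidative phosphorylation, whose median was 0.01. Of 11 mitochondrially encoded genes 0 were called by limma (1 at an unadjusted p under 0.05).

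With all members summed, genes of the myofibre made up a larger part of the knockout libraries. The list held 2.65, 1.83 and 7.4% of summed FPKM in FoxM1fl/fl SCs and 26.3, 20.3 and 14.3% in FoxM1-cKO SCs. Pgam2 and Eno3 stood in this list and in that of glycolysis, so the 2 lists are not separate results, and without them the myofibre list held 2.57, 1.8 and 6.86% and 13, 9.9 and 7.21%. Without Pgam2 and Mb, its 2 members of highest FPKM, it held 2.57, 1.79 and 7.1% and 7.07, 9.37 and 12.3%, and the genotypes overlapped. Of 31 tested members 1 was called higher and 0 lower, with a median of 1.83, or 0.80 with the bounds. The call was Tcap, a protein of the Z-disc, at 0 in all 3 libraries of controls and at 24.7, 6.1 and 4.43 FPKM from 4, 1 and 1 reads (adjusted p = 0.0172). Acta1, skeletal actin, was at 5037, 2455 and 22050.0 FPKM in controls and at 39960.0, 24430.0 and 12500.0 FPKM in the knockout, and the groups overlapped. Mb, myoglobin, was at 188, 141 and 103 FPKM and 42630.0, 18950.0 and 0 FPKM, so the gene that was second among its list in uninjured 1 was at 0 in uninjured 3. RNA of myofibres in a library of sorted SCs and expression in the SCs cannot be told apart here, nor can fewer cells and less RNA per cell.

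More genes tied to muscle fibres were called outside that list. Ankrd23, a titin-associated stress protein, was at 0 in all 3 libraries of controls and at 10.3, 5.08 and 1.84 FPKM from 4, 2 and 1 reads (adjusted p = 0.0244). Mettl21c, a lysine methyltransferase of muscle, was at 0 in all 3 libraries of controls and at 32, 24.9 and 22.9 FPKM from 19, 15 and 19 reads (adjusted p = 0.00396). Its knockout values lay close together. Ppp1r27, a regulatory subunit of protein phosphatase, was at 0 in all 3 libraries of controls and at 22.8, 113 and 179.7 FPKM (adjusted p = 0.00429), with 1 read in uninjured 1.

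Matrix and secreted proteins moved in either direction. Fn1, fibronectin, rose from 0.401, 0 and 2.06 to 562, 286 and 39.9 FPKM (adjusted p = 0.0172). Fbln1, a fibulin of the basement membrane, was at 0 in all 3 libraries of controls and at 83.3, 33.2 and 39 FPKM, at least 21.2-fold higher (adjusted p = 0.00754). Comp, a cartilage and tendon matrix protein, rose from 0.689, 0.645 and 0 to 189, 71.8 and 12.2 FPKM (adjusted p = 0.0478). These 3 were highest in FoxM1-cKO uninjured 1. Apod, a lipid-binding apolipoprotein, rose from 0.803, 0 and 0 to 11.3, 86.4 and 164 FPKM (adjusted p = 0.0214). Ccl2, a chemokine that attracts monocytes, rose from 0, 1.42 and 0 to 90.9, 116 and 123 FPKM (log2 difference 6.36 with SE 1.10, adjusted p = 0.0137).

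Serpinf1 (chromosome 11, 75409769 to 75422701), a secreted serpin that restrains vessel growth, had the most reads of any gene that fell apart from Rabgap1l. It was at 7014, 7572 and 2907 FPKM in controls and at 109, 41 and 20.6 FPKM in the knockout (log2 difference -6.85 with SE 1.06, adjusted p = 0.00633). The ratio of the means was 103. Adamts9, a matrix protease, was at 302, 9.91 and 2974 FPKM in controls and at 0 in all 3 libraries of the knockout (adjusted p = 0.0282). Mfge8, a bridge for the uptake of dying cells, was at 89.3, 34.1 and 474 FPKM and at 0 in all 3 libraries (adjusted p = 0.0395). Adamts9 and Mfge8 were highest in FoxM1fl/fl uninjured 3 and lowest in uninjured 2, with the value in uninjured 1 between them. Pxylp1, a phosphatase of proteoglycan synthesis, was at 7.31, 5.37 and 44.8 FPKM and at 0 in all 3 libraries (adjusted p = 0.0282). Of 34 collagen, laminin, integrin and matrix genes 1 was called higher and 0 lower, with a median of -0.35, or 0 with the bounds.

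Single genes of antigen presentation and immune signalling were called lower. H2-K1 (chromosome 17, 33996017 to 34000347), a class I histocompatibility antigen, was at 495, 472 and 256 FPKM in controls and at 3.13, 0 and 0 FPKM in the knockout, which is 557, 568 and 84 reads against 1, 0 and 0 (log2 difference -7.93 with SE 1.10, adjusted p = 0.00396). Irf9, the DNA-binding part of the interferon-activated complex ISGF3, was at 17.2, 14.1 and 54.7 FPKM and at 0 in all 3 libraries, at least 7-fold lower (adjusted p = 0.00633). Of 19 tested genes of class I presentation and the interferon response, these 2 were called lower and 0 higher, and the median was 0. Nfkbia, the inhibitor that holds NF-κB in the cytoplasm, was at 674, 1142 and 72.5 FPKM and at 3.71, 0 and 0 FPKM (adjusted p = 0.0166). Adgre5, an adhesion receptor known as CD97 on leukocytes, was at 291, 22.8 and 2296 FPKM and at 0 in all 3 libraries (adjusted p = 0.0211).

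Leukocyte markers were measured beside these. Ptprc, which encodes the CD45 antigen that the sort removed, was at 224, 248 and 0 FPKM in controls and at 0 in all 3 libraries of the knockout. Fcer1g, a receptor chain of myeloid cells, was at 1287, 1364 and 0 FPKM and at 0 in all 3 libraries. Of 15 markers of macrophages and leukocytes these 2 alone were above 0, and the list summed to 0.251%, 0.265% and 0% of FPKM in controls and to 0% in each FoxM1-cKO library. In FoxM1fl/fl uninjured 3, where the list was at 0, H2-K1, Irf9, Nfkbia and Adgre5 were at 256, 54.7, 72.5 and 2296 FPKM. Every called gene separated the genotypes, so values above the knockout in that library are no check. A part of leukocytes in these calls was not tested.

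Single genes of kinase, phosphatase and trafficking function were called lower, while others of the same kinds, such as Plk2, Ppp1r27 and Snx24, were called higher. Rabgap1l, which acts on Rab GTPases, was at 2955, 3312 and 42.4 FPKM in controls and at 5.55, 3.65 and 0 FPKM in the knockout (adjusted p = 0.0214). Its control values came from 22489, 26937 and 94 reads. Riok3, an atypical kinase, was at 567, 594 and 62.5 FPKM and at 1.6, 3.16 and 0 FPKM (adjusted p = 0.0166). Camk2g, a calmodulin-dependent kinase, was at 123, 68.1 and 575 FPKM and at 0 in all 3 libraries (adjusted p = 0.0144). Ppp2r5e, a regulatory subunit of protein phosphatase 2A, was at 165, 6.15 and 1627 FPKM and at 0 in all 3 libraries (adjusted p = 0.0407). Its control libraries thus differed widely among themselves.

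Sh3rf2, an adaptor that limits JNK signalling, was at 62.5, 60.6 and 38.2 FPKM and at 0 in all 3 libraries of the knockout (adjusted p = 0.00325). Faim, an inhibitor of apoptosis triggered by Fas, was at 103, 121 and 49.7 FPKM and at 0 in all 3 libraries, at least 11.9-fold lower (adjusted p = 0.00325). These had the smallest p of the genes that fell. Stk38l, a kinase of the Hippo family, was at 13.5, 10.3 and 10.1 FPKM and at 0 in all 3 libraries (adjusted p = 0.0208). Gpr161, a receptor of the primary cilium that restrains Hedgehog signalling, was at 10.7, 15 and 1.67 FPKM and at 0 in all 3 libraries (adjusted p = 0.0497). Wnk2, a kinase of ion transport, was at 1.21, 1.58 and 1.66 FPKM from 5, 7 and 2 reads and at 0 in all 3 libraries (adjusted p = 0.0248). Its control mean is below the worth of 3 reads in the knockout libraries, so a fall could not be told from sampling at this depth.

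Single genes of lipid metabolism and of organelles were also called lower. Hsd11b1, which regenerates active glucocorticoid, was at 101, 13.4 and 870.4 FPKM in controls and at 0 in all 3 libraries of the knockout (adjusted p = 0.0208). Acat2, of acetyl-CoA metabolism, was at 17.8, 5.54 and 53.4 FPKM and at 0 in all 3 libraries (adjusted p = 0.0395). Hexa, a lysosomal hexosaminidase, was at 63.4, 46 and 163 FPKM and at 0 in all 3 libraries (adjusted p = 0.0371). It was the only call among 29 lysosome and autophagy genes, with a median of 0. Pex2, of peroxisome assembly, Yipf4, of the Golgi, and Slc39a6, a zinc transporter, were at 8.37 to 40.2 FPKM in every control library and at 0 in every knockout library, with adjusted p of 0.0166, 0.0324 and 0.0252.

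Genes that act in the nucleus were called in either direction. Zeb2, a zinc finger repressor, was at 0 in all 3 libraries of controls and at 67.4, 287 and 421 FPKM in the knockout (adjusted p = 0.00511). Bhlhe40, a repressor of the clock and hypoxia responses, rose from 0.535, 0 and 0 to 254, 134 and 56.6 FPKM (adjusted p = 0.0172). Klf9, a target of glucocorticoids and thyroid hormone, rose from 2.04, 1.43 and 12.3 to 117, 179 and 217 FPKM (log2 difference 5.18 with SE 1.08, adjusted p = 0.029) and was above 0 in all 6 libraries. C1d, a factor of the RNA exosome, was at 0 in all 3 libraries of controls and at 19.7, 48.5 and 74.6 FPKM (adjusted p = 0.0208). Coil, the marker protein of Cajal bodies, was at 0 in all 3 libraries of controls and at 1.88, 1.85 and 1.35 FPKM, 1 read in each (adjusted p = 0.0313). Its call therefore rests on 3 reads in all.

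Jmjd1c, a demethylase-related protein, was at 75.6, 77.1 and 37.2 FPKM in controls and at 0 in all 3 libraries of the knockout (adjusted p = 0.0244). Nolc1, of the nucleolus, was at 73.3, 107 and 6.3 FPKM and at 0 in all 3 libraries (adjusted p = 0.0395). Naa20, the catalytic subunit of an N-terminal acetyltransferase, was at 23, 24 and 30.4 FPKM and at 0 in all 3 libraries (adjusted p = 0.00569). Among these 3, Naa20 had the least spread between control libraries. Btg2, an antiproliferative target of p53, fell from 110.5, 111 and 37.5 to 0, 2.11 and 1.53 FPKM (adjusted p = 0.0211). Plk2, a kinase that is also a p53 target, was at 0 in all 3 libraries of controls and at 73.2, 51.6 and 19.5 FPKM (adjusted p = 0.0244). They were the 2 calls, in opposite directions, among 15 tested D-type cyclins, CDK inhibitors and p53 targets. Btg2 and Nfkbia were also the 2 called among 31 immediate early genes, both lower, where the median was 0.47, or 0 with the bounds. That list held 0.242, 0.281 and 0.338% of FPKM in controls and 1.16, 0.671 and 0.135% in FoxM1-cKO SCs, and without Klf6 and Ier2, its 2 members of highest FPKM, 0.232, 0.277 and 0.292% and 0.0238, 0.0471 and 0.0684%.

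Single genes of stress, protein turnover and redox balance were called higher. Of 37 tested heat shock proteins and chaperonins 0 were called by limma (6 at an unadjusted p under 0.05), with a median of 0. Hsbp1, which binds heat shock factor, was at 0 in all 3 libraries of controls and at 179, 86.2 and 66 FPKM in the knockout (adjusted p = 0.00396). Psmc3, an ATPase of the proteasome, was at 0 in all 3 libraries of controls and at 109, 54.1 and 13.8 FPKM (adjusted p = 0.0214) and was the only call among 37 proteasome genes. Mt1, a metallothionein, rose from 0, 5.74 and 21.1 to 167, 219 and 371 FPKM (adjusted p = 0.0433). Selenow, a small selenoprotein abundant in muscle, rose from 2.26, 2.12 and 0 to 255, 173 and 119.8 FPKM (adjusted p = 0.0208). Mt1 and Selenow were the 2 calls among 30 antioxidant genes, 6 of which separated the genotypes, all upward, beside 7.1% of all tested genes in either direction. The list held 0.0346, 0.0299 and 0.0814% of FPKM in controls and 0.805, 0.845 and 0.933% in FoxM1-cKO SCs, and its median was 0. Most of the knockout share lay in Gpx7, a glutathione peroxidase at 4258, 2172 and 0 FPKM, and Prdx4, a peroxiredoxin at 0, 2223 and 4117 FPKM, neither of them called. Without these 2 the list held 0.0346, 0.0299 and 0.0814% and 0.21, 0.149 and 0.178%.

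Brk1 (chromosome 6, 113604772 to 113616951), the smallest subunit of the WAVE complex that drives branched actin, was at 0 in all 3 libraries of controls and at 225, 259 and 272 FPKM (adjusted p = 0.00325). It was the only call among 31 genes of Arp2/3, WAVE and actin turnover. Angel2, a phosphatase of RNA ends, was at 0 in all 3 libraries of controls and at 134, 93.4 and 63.3 FPKM (adjusted p = 0.029). Snx24, a sorting nexin, was at 0 in all 3 libraries of controls and at 18.7, 15.4 and 42.4 FPKM (adjusted p = 0.00505). Endog, a mitochondrial nuclease, and Rusc2, a Rab1 partner, rose on 5, 3 and 1 and on 2, 8 and 14 knockout reads, with adjusted p of 0.0437 and 0.029. The calls held 8 pseudogenes, 5 higher (Rpl37rt, Gm9616, Gm13680, Gm15500 and Gm29216) and 3 lower (Rps16-ps2, Gm7206 and Gm10095), which can take reads from their parent genes. The uncharacterised 4833439L19Rik was at 305, 231 and 1147 FPKM in controls and at 0 in all 3 libraries (adjusted p = 0.00633).

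Most genes of cell division were at or close to the floor in either genotype. Of 18 tested targets of FoxM1 and G2/M genes 14 were at 0 in all 6 uninjured libraries, 0 were called by limma (2 at an unadjusted p under 0.05), and the median was 0. Cdk1, Cdc20, Ccnb2 and Mki67 were at 0 throughout. Ube2c, the ubiquitin-conjugating partner of the anaphase-promoting complex, was at 2.28, 0.711 and 10.4 FPKM in controls and at 10.7, 7.92 and 5.75 FPKM in the knockout, which overlapped. The list held 0.00236, 0.00272 and 0.00325% of FPKM in controls and 0.0015, 0.00125 and 0.00106% in FoxM1-cKO SCs. Without Ube2c and Foxm1, its 2 members of highest FPKM, it held 0.00107, 0.00113 and 0.000785% and 0% in each FoxM1-cKO library. That rest was Ccnb1 alone in FoxM1fl/fl uninjured 2 and 3 and mostly Ccnb1 in uninjured 1. The difference of the list thus lay almost entirely in Foxm1 and Ccnb1, whose values could not be turned into reads. Of 26 tested G1/S and replication genes 16 were at 0 throughout and 0 were called by limma (3 at an unadjusted p under 0.05). A difference above 0 was measured for 1 member, Pcna, and below 0 for 9. This list held 0.0181, 0.01 and 0.0727% of FPKM in controls and 0.00108, 0.00181 and 0.0028% in FoxM1-cKO SCs. Without Rrm1 and Mcm6, its 2 members of highest FPKM, the control shares were 0.00334, 0.0032 and 0.0063%, and those of the knockout were unchanged. Pcna, the sliding clamp of DNA polymerase, was at 0 in all 3 libraries of controls and at 7.72, 11.4 and 13.8 FPKM from 2, 3 and 5 reads (adjusted p = 0.169). Rrm1, a subunit of ribonucleotide reductase, was at 43.2, 0 and 479.5 FPKM and at 0 in all 3 libraries (adjusted p = 0.179). Cdt1, a licensing factor of replication, was at 6.79, 13.3 and 25.5 FPKM and at 0 in all 3 libraries (adjusted p = 0.183). Pcna and Cdt1 were the 2 of 26 that separated the genotypes, in opposite directions, beside 7.1% of all tested genes in either direction. For the genes of the cycle at 0 throughout, a change was not detectable at this depth.

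Genes of Wnt signalling were not called either. Apc, a scaffold of the β-catenin destruction complex, was at 0.135, 0 and 0 FPKM in controls, 1 read in all, and at 0 in all 3 libraries of the knockout. Ctnnb1, β-catenin, was at 1.38, 0.86 and 4.74 FPKM from 3, 2 and 3 reads and at 0 in all 3 libraries (adjusted p = 0.583). Gsk3b, a kinase of the destruction complex, was at 0, 0.188 and 0.689 FPKM in controls and at 249, 118 and 0 FPKM in the knockout (adjusted p = 0.272). It was high in 2 knockout libraries and at 0 in uninjured 3. Skp1a, of the ubiquitin ligase that marks β-catenin, was at 874, 0 and 8107 FPKM and 0, 3.3 and 2.39 FPKM (adjusted p = 0.2). The high values of Gsk3b came from 353 and 169 reads and those of Skp1a from 921 and 2486, beside 0 reads in the remaining library of the same genotype. Of 13 tested Wnt and destruction complex genes 0 were called by limma (4 at an unadjusted p under 0.05). Of 8 tested subunits of the anaphase-promoting complex 0 were called by limma (1 at an unadjusted p under 0.05), and Cdc26 was at 0 in all 3 libraries of controls and at 0, 2072 and 3903 FPKM.

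The label of the cells was checked against their markers. Itga7, Vcam1, Cdh15 and Chodl, which mark quiescent SCs, were at 0 in all 6 libraries, and Cd34 was above 0 in FoxM1-cKO uninjured 3 alone, at 9.60 FPKM from 7 reads. Sdc4, a surface proteoglycan of SCs, was at 104, 128 and 48.9 FPKM in controls and at 0, 301 and 458 FPKM in the knockout. Des, desmin, was at 0 in all 3 libraries of controls and at 7.74, 28.7 and 91.5 FPKM (adjusted p = 0.0863). Msc, a basic helix-loop-helix factor of muscle precursors, was at 0 in all 3 libraries of controls and at 1302, 641 and 41 FPKM (adjusted p = 0.0741). Myod1, the determination factor of activated SCs, was at 0 in all 3 libraries of controls and at 0, 15.5 and 42.9 FPKM. Of 22 tested genes of SC identity and quiescence 0 were called by limma (3 at an unadjusted p under 0.05). Of the surface antigens by which SCs were sorted, that of Itga7 was thus not seen at this depth. Cd34, like Des, Msc and Myod1, was read in knockout libraries alone. Cxcr4, of the same SC list, was read in controls alone, at 51.7, 52.6 and 0 FPKM. Itgb1, also of that list, was at 8.29, 0 and 59.97 FPKM in controls and at 3.07, 0 and 0 FPKM in the knockout.

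Markers of connective tissue cells were present in every library. The list of fibro-adipogenic and tendon markers summed to 2.38, 2.47 and 0.818% of FPKM in FoxM1fl/fl SCs and to 0.619, 0.86 and 1.2% in FoxM1-cKO SCs. Without Serpinf1 and Col1a2, its 2 members of highest FPKM, it summed to 0.397, 0.37 and 0.325% and 0.575, 0.497 and 0.478%. Of 17 tested markers Fbln1 and Comp were called higher and Serpinf1 lower, and their part in the matrix results was not tested. Dcn, decorin, was at 322, 316 and 362 FPKM and 1179.9, 765 and 604 FPKM, and Fmod, fibromodulin of tendon, at 1665, 1695 and 214 FPKM and 18.8, 172 and 239.5 FPKM. Col3a1 was at 16.2, 18.5 and 22.6 FPKM and 857, 391 and 27.2 FPKM. Acta2, smooth muscle actin, was at 155, 0 and 1538 FPKM and at 0 in all 3 libraries of the knockout, and Mbp, of myelin, at 63.9, 90.9 and 0 FPKM and at 0 in all 3 libraries. Ly6a, which encodes Sca1, and the 4 erythrocyte markers were at 0 in all 6 libraries.

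The called genes were set against the libraries that follow a weighted sum. In FoxM1fl/fl uninjured 1, 27 of the 33 lower genes were within 1.5-fold of the weighted sum of the other 2 control libraries. In FoxM1-cKO uninjured 2, 38 of the 43 higher genes were within 1.5-fold of the sum for their group. The shares over all genes with at least 20 FPKM in either of the other 2 libraries were 81.2% and 73.8%. Called genes include some under 20 FPKM, so these shares are not like for like, and a closer fit of called genes was not tested. The relation was seen over the libraries at large and not in called genes alone. Adgre5, for example, was at 291 FPKM in FoxM1fl/fl uninjured 1, between 22.8 in uninjured 2 and 2296 in uninjured 3.

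**Figure D4:**
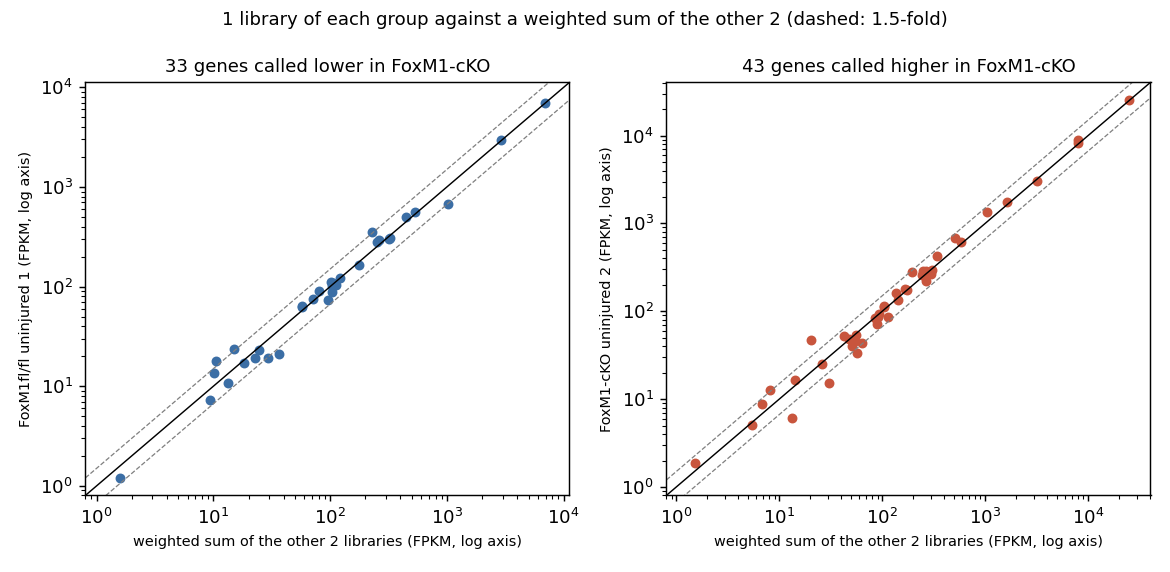
FPKM in 1 library of each genotype (vertical, log axis) against the weighted sum of the other 2 libraries of that genotype (horizontal, log axis), for the 33 lower genes (left) and the 43 higher genes (right). The solid line marks equality and the dashed lines 1.5-fold, between which 27 and 38 genes lie. Over all genes with at least 20 FPKM in either of the other 2 libraries, the shares are 81.2% and 73.8%.

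Promoters were read for the motif that FoxM1 prefers and for the cell cycle homology region through which it acts with its partners. The windows are RefSeq promoters of GRCm38.p6, 250 bases before to 50 after a start, and 28 of 43 higher and 22 of 33 lower genes had one, some with several. The forkhead words searched were CAAACAA, then the variant CAAATAA, then the variant TAAACAA, and finally the variant TAAATAA. The homology words searched were TTTGAA and, as a variant, TTCGAA. Each was searched on either strand, and neither kind of word contains the other. A forkhead word was in 5 of 53 promoters of higher genes (9.43%) and in 4 of 26 of lower genes (15.4%), against 10.04% of 4570 promoters of tested genes. A homology word was in 5 of 53 (9.43%) and 2 of 26 (7.69%), against 13.5%. The promoters below belong to the 2 higher and 2 lower genes with a forkhead word and the smallest p, with the words in capitals. They are shown because they would be the first to be looked at for direct binding, and a match is no evidence of a site.
Eif5a promoter (chr11:69921909-69922208, minus strand): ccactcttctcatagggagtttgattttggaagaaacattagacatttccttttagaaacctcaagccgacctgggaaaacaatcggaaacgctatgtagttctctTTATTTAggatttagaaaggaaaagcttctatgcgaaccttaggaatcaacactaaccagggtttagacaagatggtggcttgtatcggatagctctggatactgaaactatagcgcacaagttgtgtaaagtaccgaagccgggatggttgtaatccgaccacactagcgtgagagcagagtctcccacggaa
Brk1 promoter (chr6:113604522-113604821, plus strand): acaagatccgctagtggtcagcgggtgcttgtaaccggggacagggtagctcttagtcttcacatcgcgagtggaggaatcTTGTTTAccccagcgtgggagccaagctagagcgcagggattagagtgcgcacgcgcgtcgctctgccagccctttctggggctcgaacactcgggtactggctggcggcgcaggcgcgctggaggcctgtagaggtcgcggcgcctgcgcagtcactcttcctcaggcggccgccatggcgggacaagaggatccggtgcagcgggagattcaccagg
Faim promoter (chr9:98986123-98986422, plus strand): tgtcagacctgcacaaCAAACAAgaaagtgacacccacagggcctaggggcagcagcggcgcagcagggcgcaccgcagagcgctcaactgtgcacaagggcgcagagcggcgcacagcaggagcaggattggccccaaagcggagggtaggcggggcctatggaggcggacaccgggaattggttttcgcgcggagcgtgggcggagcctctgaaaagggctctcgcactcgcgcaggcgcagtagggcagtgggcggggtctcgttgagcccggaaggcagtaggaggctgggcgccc
Yipf4 promoter (chr17:74489243-74489542, plus strand): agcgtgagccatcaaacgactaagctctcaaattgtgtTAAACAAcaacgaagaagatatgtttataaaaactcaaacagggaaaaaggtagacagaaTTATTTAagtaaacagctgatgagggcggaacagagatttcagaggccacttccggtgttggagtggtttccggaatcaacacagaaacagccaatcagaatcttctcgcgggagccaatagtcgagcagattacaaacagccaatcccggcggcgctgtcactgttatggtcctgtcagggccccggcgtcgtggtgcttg

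**Figure D5:**
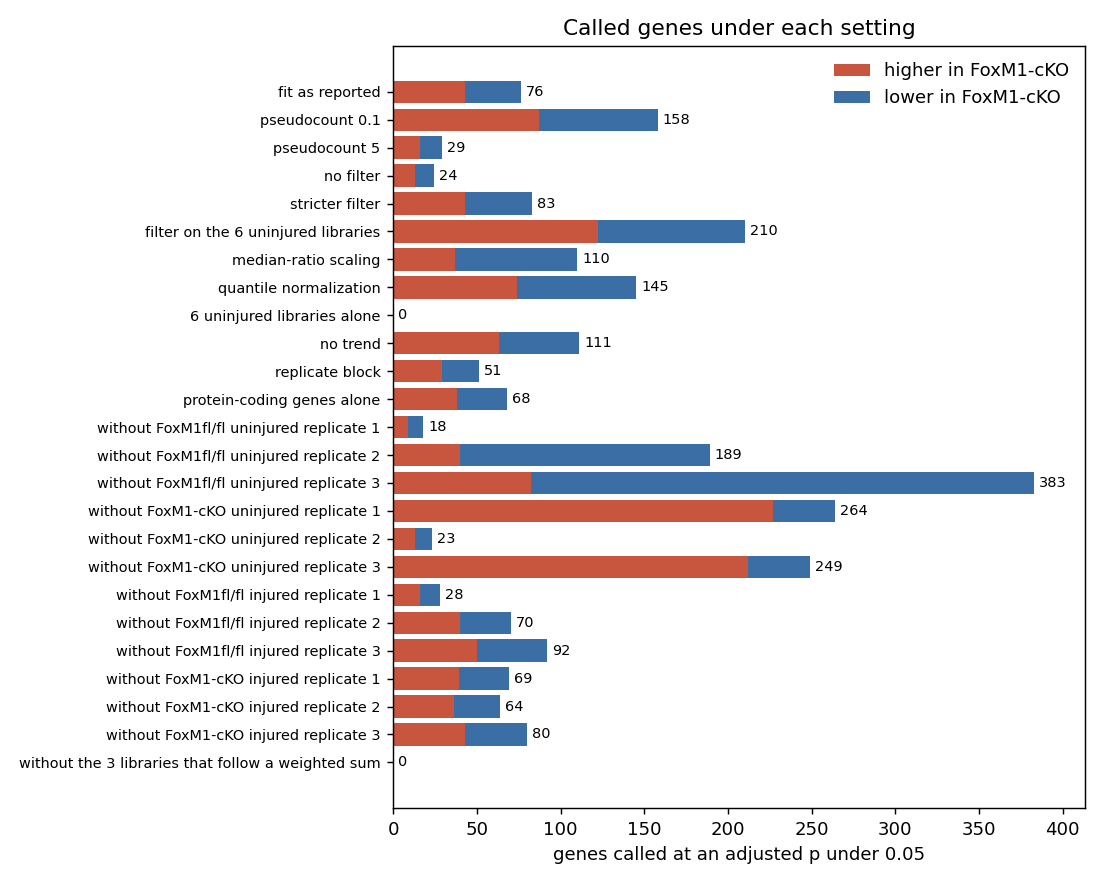
Number of genes called at an adjusted p under 0.05 (horizontal axis) under each setting, split by direction. The fit as reported calls 76, the fits of the 6 uninjured libraries alone and without the 3 weighted-sum libraries call 0, and leaving out 1 library gives 18 to 383; the fit with array weights, at 2152, is not drawn.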

How the data were processed

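RNA was measured in 12 libraries of sorted SCs, 3 in each of 4 groups, and the 6 uninjured libraries were compared. Bowtie 0.12.9 placed the reads on mm10, and the FPKM that the authors deposited for each gene come from Cufflinks 2.1.1. Their own test, DESeq2 on HTSeq counts, could not be rerun on FPKM. No further normalization was applied. GENCODE M21 supplied types and positions for 13767 of 13775 genes.

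Genes that reached 1 FPKM in 3 or more of 12 libraries were put on the scale log2(FPKM + 1), which understates the change of low genes. A model of 4 group means over 12 libraries was fitted with limma 3.58.1 (R 4.3.3) and a mean-variance trend. p-values were adjusted over the 4956 genes by the Benjamini-Hochberg method. Depth and reads were recovered from the whole steps of FPKM, and depths of 170701 to 642010 reads limit the precision of low genes. The scripts were tested on simulated data. Python 3.11.15, pandas 2.3.3 and matplotlib 3.10.9 made the other tables and the plots.

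Named were the genes the paper names for SCs, nearly every called gene, with the 12 highest and 12 lowest called genes of at least 5 FPKM plotted by library, up to 3 members of each list, and markers of other cells of at least 50 FPKM. The comparison, the 25 gene lists and 6 marker lists were chosen with earlier results of these data known. Alternatives were pseudocounts of 0.1 and 5, other filters, scalings and variance models, the replicate block, and libraries left out. When a library was left out, the tested genes were held fixed. The filter was first recomputed on the libraries left, and the fixed form was chosen after the counts from both had been seen, so both are given. Pax7 and Myf5 were not analysed here, and results for a few other genes, 1 of the 12 highest among them, are not reported here.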

Additional observations from a re-analysis of the deposited data

How the results depend on the processing

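The number of called genes depended strongly on the processing. Against 76 genes (43 higher, 33 lower), limma called 158 (87 and 71) with a pseudocount of 0.1, 29 (16 and 13) with a pseudocount of 5, 24 (13 and 11) with no filter, 210 (122 and 88) with the filter on the 6 uninjured libraries, 110 (37 and 73) after median-ratio scaling, 145 (74 and 71) after quantile normalization and 2152 (1085 and 1067) with array weights, whose estimate did not converge. It called 0 (0 and 0) in the 6 uninjured libraries alone, with 266 at an unadjusted p under 0.05, and 0 (0 and 0) without the 3 weighted-sum libraries, with 158 at an unadjusted p under 0.05, or 149 with the filter recomputed. Counts under the stricter filter (83), with no trend (111) and among protein-coding genes alone (68) stayed within 1.5 times. Leaving out 1 library at a time gave 18 to 383 called genes, 9 to 227 higher and 9 to 301 lower. With the filter recomputed on the libraries left, the form run first, it gave 10 to 375 called, 6 to 220 higher and 4 to 293 lower. Taking the fixed form as the main one was a choice made after both were seen. It leaves the spread as wide. Without FoxM1fl/fl uninjured 1, 2 or 3 there were 18, 189 and 383 calls, without FoxM1-cKO uninjured 1, 2 or 3 there were 264, 23 and 249, and without FoxM1fl/fl injured 1 there were 28. No called gene reversed its direction under any of these settings. All 76 separated the genotypes without overlap, so a reversal was possible at most after median-ratio scaling or quantile normalization. The constant direction is therefore no test of the calls. The replicate block gave 51 calls (29 and 22), 49 of them among the 76. Libraries with the same number did not deviate together (correlations 0.017, -0.032 and 0.054), so the numbers were not taken to pair them.

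Foxm1 kept its direction throughout. Values of 0 in every knockout library and above 0 in every control library fix this in advance under nearly every setting. Its log2 difference was -6.18 with a pseudocount of 0.1 (adjusted p = 0.0118 from limma), -3.03 with the filter on the 6 uninjured libraries (0.0227), -4.12 after median-ratio scaling (0.0467), -2.75 under array weights (2.45e-06), -3.03 with no trend (0.0191) and -3.88 after quantile normalization (0.0458), each past the threshold that the reported fit missed. Leaving out 1 library gave -3.19 to -2.88, past the threshold without FoxM1fl/fl injured 3 alone (0.0491, or 0.0581 with the filter recomputed). The highest adjusted p, without the 3 libraries, was 1. The shallow depth limits genes near the worth of a few reads.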
